A study of Mus musculus with 18 samples.

Results

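A set of 10 genes encoding matricellular and adhesive matrix proteins was followed across 18 libraries of mouse colon RNA: Fn1, Vtn, Thbs1, Thbs2, Tnc, Postn, Sparc, Spp1, Ccn1 and Ccn2. They were chosen by name with earlier results of these data known, and all 10 were found among the 36451 genes of the deposited table. The tissue was colon from male C57BL/6J mice, and the 3 groups had 6 libraries each. The Control animals, aged 6 weeks, had no stated treatment. Model mice received 3% dextran sulfate sodium (DSS), a polymer that injures the colon epithelium, in their water for 1 week, with saline by gavage. AKK mice were gavaged with 0.1 mL of Akkermansia muciniphila, a bacterium that feeds on intestinal mucin, once a week over 6 weeks. DSS is stated for the Model animals alone, and ages are stated for Control alone, so age and treatment cannot be told apart. The library numbers do not overlap between groups, and no label says whether every library came from its own mouse, so p-values here measure the spread among these libraries alone, which may be technical.

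Adhesive glycoproteins such as fibronectin and vitronectin carry sequences that integrins, the matrix receptors of the cell surface, grip. Matricellular proteins such as the thrombospondins, tenascin-C, periostin, SPARC, osteopontin and the CCN proteins sit in the matrix but act mainly on how cells attach, migrate and respond to growth factors. They are known to be low in many resting adult tissues and high in healing wounds, where fibroblasts, smooth muscle cells, macrophages and platelets can make them.

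Levels are given as FPKM, the fragments of a gene relative to its transcript length and to the depth of the library. Changes are log2 ratios ± standard error (SE) from the edgeR quasi-likelihood test of the counts, fitted over all 18 libraries and 14007 genes. A gene counted as called where its p, adjusted over those genes after Benjamini and Hochberg, was under 0.05. Genes entered the test with at least 1 FPKM in at least 6 libraries. This kept 9 of the 10 genes, Vtn with exactly 6 such libraries. Of these, 3 were Model, 3 AKK and 0 Control libraries, so Vtn passed the filter only through Model and AKK. It is kept in the counts and medians of the 9 genes below. Spp1 had 4 and was not tested. Total counts ranged from 53873744 to 65705141 in Control, from 58841661 to 79147073 in Model and from 60665457 to 82589848 in AKK. A pair of Model libraries stood apart before any comparison. In Model_1337 the 6 squamous epithelium markers summed to 4603 FPKM, with a Model median of 1.24 and at most 1.11 in the AKK and Control libraries. The platelet gene Ppbp reached 1196 FPKM there, and 0.747 was the highest AKK value. Of the colon epithelium genes, Epcam was at 130 FPKM there and Cdx2, an intestinal transcription factor, at 0.904, against 91.0 to 121 for Cdx2 in Control and 55.9 to 93.6 in AKK. Cdx2 was thus near 0 in a library labelled as colon, and values without it are given with the results. In Model_1341 mitochondrial genes took 17.0% of counts, and the other libraries had 3.93% to 8.59%.

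In the Model colon, 8 of the 9 tested genes were higher than in Control and 0 were lower. Of all tested genes, 12.4% were called higher and 7.67% lower. Because the genes were chosen with earlier results known, such shares are set beside the counts here and below as a description only. Vtn was the gene not called. The median change over the 9 genes was 1.08 on the log2 scale, and over all tested genes it was 0.00. Between AKK and Model, 0 of the 9 genes were called in either direction by edgeR or by DESeq2, which gave no adjusted p for Vtn. Ccn1 and Ccn2 were the 2 with an unadjusted p under 0.05. Of all tested genes, edgeR called 0.0214% higher and 0% lower, and DESeq2 0.0857% higher and 0.00714% lower. Between AKK and Control, 3 of the 9 genes, Fn1, Tnc and Sparc, were called higher and 0 lower, against 3.72% higher and 2.48% lower among all tested genes. The median changes were 0.94 for the 9 genes and -0.01 for all tested genes. The comparisons share libraries, so their values are set side by side and not counted as separate support. In RNA from whole tissue, fewer cells of a type and less RNA per cell cannot be told apart.

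**Figure D1:**
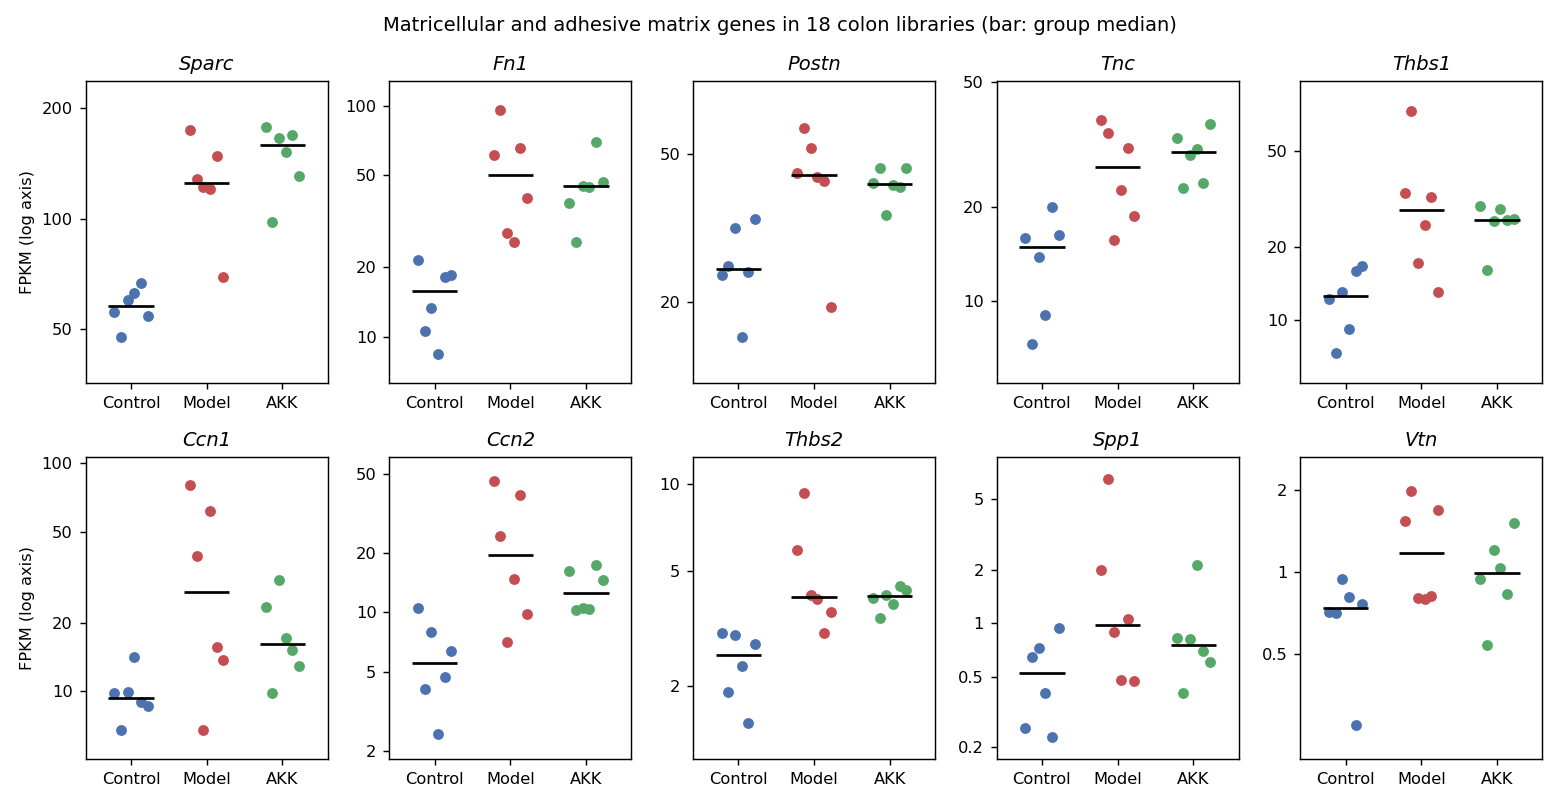
FPKM (log axis) of the 10 genes in each of the 18 libraries, 1 point per library and a bar at the group median. Sparc and Fn1 have all 6 Model and all 6 AKK points above the highest Control point, and the Model points of Spp1, Ccn1 and Ccn2 spread over the widest ranges relative to their lowest value.

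Sparc was the most abundant gene, and Vtn and Spp1 were the least abundant. Vtn was lower by the mean over all libraries and Spp1 by the median in each group. The mean FPKM over the 18 libraries was 111 for Sparc, 37.6 for Fn1, 36.8 for Postn, 23.4 for Thbs1, 23.2 for Tnc, 21.4 for Ccn1, 14.3 for Ccn2, 3.83 for Thbs2, 1.11 for Spp1 and 0.994 for Vtn. Per kilobase of transcript, 97.3% of tested genes lay below Sparc and 2.47% lay below Vtn. The share of all counts that fell in the 10 genes was 0.0727% to 0.11% in the Control libraries, 0.135% to 0.339% in the Model libraries and 0.158% to 0.248% in the AKK libraries. The Control range did not overlap the other two.

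Promoter sequences from RefSeq (GRCm38.p6, the assembly that mm10 names) were found for 7 of the 10 genes, and Fn1, Thbs1 and Ccn2 had none in the table used. The 3 shown belong to genes with changes of unlike size in the Model colon, among them Ccn1 with a 3.54-fold and Postn with a 1.62-fold higher level, and their start sites lie within 27 bases of the start in the deposited table. Each is the 250 bases before the start site, 5′ to 3′ on the gene's strand, and capitals mark motif matches. Ccn1 is on the minus strand at chr3:145649986-145650235, Postn on the plus strand at chr3:54360857-54361106, and Thbs2 on the minus strand at chr17:14694263-14694512.
Ccn1: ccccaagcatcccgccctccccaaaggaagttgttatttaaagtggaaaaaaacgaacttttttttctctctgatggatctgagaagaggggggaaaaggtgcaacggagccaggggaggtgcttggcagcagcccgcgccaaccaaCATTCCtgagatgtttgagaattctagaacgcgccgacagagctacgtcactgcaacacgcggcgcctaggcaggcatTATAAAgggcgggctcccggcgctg
Postn: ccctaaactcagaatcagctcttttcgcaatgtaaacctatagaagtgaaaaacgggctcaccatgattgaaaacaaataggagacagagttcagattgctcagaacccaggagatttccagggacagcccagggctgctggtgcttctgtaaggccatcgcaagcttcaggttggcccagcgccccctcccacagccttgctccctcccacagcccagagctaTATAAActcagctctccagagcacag
Thbs2: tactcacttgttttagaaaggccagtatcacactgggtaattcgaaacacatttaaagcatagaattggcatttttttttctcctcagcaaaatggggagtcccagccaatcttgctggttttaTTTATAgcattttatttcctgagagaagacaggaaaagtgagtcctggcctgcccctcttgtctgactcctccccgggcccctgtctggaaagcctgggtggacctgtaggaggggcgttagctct
On both strands 5 motifs were searched. They were GGAATG, the core bound by TEAD factors, the partners of YAP and TAZ; TGANTCA, bound by AP-1; GTCTAGAC, a SMAD repeat; TATAAA, the TATA box; and the CArG box bound by SRF. The Ccn1 window held the TEAD letters on the strand opposite the gene, read above as CATTCC, from 103 to 98 bases before the start, and a TATA box from 25 to 20 bases before it. The Postn window held a TATA box from 26 to 21 bases before the start. In the Thbs2 window the TATA letters lay on the strand opposite the gene, read as TTTATA, 126 to 121 bases before the start. The Vtn window also held the TEAD letters, and windows of Vtn, Tnc and Spp1 held the TATA letters. No window of the 7 genes matched TGANTCA, GTCTAGAC or the CArG box. Of 32851 RefSeq windows of this length, 12.6% held GGAATG, 12.4% TATAAA, 6.75% TGANTCA, 1.47% a CArG box and 0.167% GTCTAGAC. A match describes the letters only.

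Fn1 and Vtn encode the adhesive glycoproteins. Fn1 (ENSMUSG00000026193, chr1:71585520-71653175 on mm10) encodes fibronectin, which cells assemble into fibrils through integrins and on which other matrix proteins are laid down. Its Control level ran from 8.4 to 21.5 FPKM with a median of 15.8. The Model level ran from 25.7 to 95.9 with a median of 50.4, and the AKK level from 25.7 to 69.4 with a median of 44.8. All 12 Model and AKK libraries were above all 6 Control libraries, and the Model and AKK ranges overlapped. Fn1 was 3.37-fold higher in Model than in Control (log2 1.75 ± 0.31, edgeR adjusted p 0.00291) and 2.78-fold higher in AKK than in Control (1.47 ± 0.31, adjusted p 0.0144). The change between AKK and Model was not called (-0.28 ± 0.31, 95% interval -0.92 to 0.37, edgeR adjusted p 0.838). Without the 4 libraries above 70000000 counts, 3 of which are AKK libraries, the AKK against Control change of Fn1 was 1.17 and was not called (edgeR adjusted p 0.237).

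Vtn (ENSMUSG00000017344, chr11:78499091-78502324) encodes vitronectin, a plasma glycoprotein made mainly in the liver, which binds integrins. With Spp1 it was among the lowest of the 10 genes. It ran from 0.277 to 0.944 FPKM in Control, from 0.797 to 1.98 in Model and from 0.539 to 1.51 in AKK, with medians of 0.741, 1.17 and 0.989. These ranges overlapped in every pair of groups, and 0 Control libraries reached 1 FPKM. The Model against Control change of 0.81 ± 0.31 missed the threshold (edgeR adjusted p 0.0751), as did the AKK against Control change of 0.41 ± 0.31 (adjusted p 0.432) and the AKK against Model change of -0.40 ± 0.31 (adjusted p 0.78). The 5 hepatocyte markers summed to 0.514 to 148 FPKM in Control, where Apoa1 gave 146 in the highest library, to 3.16 to 26.0 in Model and to 2.17 to 17.1 in AKK. Ttr, the 1 tested gene of that list, was higher in Model (log2 2.58, edgeR adjusted p 0.0102) and in AKK (2.30, adjusted p 0.0348) than in Control, with medians of 1.26, 5.41 and 5.18 FPKM in Control, Model and AKK. Alb stayed at or below 0.791 FPKM, and the part of these transcripts in the Vtn values was not tested.

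The thrombospondins bind integrins, CD36 and CD47, and Thbs1 is known to activate latent TGF-beta. Thbs1 (ENSMUSG00000040152, chr2:118111876-118127133) had 7.25 to 16.8 FPKM in Control with a median of 12.6, 13.1 to 73.5 in Model with a median of 28.5, and 16.1 to 29.5 in AKK with a median of 26.0. Model_1337 held the 73.5, and the next Model library had 33.6. The 5 platelet and megakaryocyte markers summed to 1224 FPKM in Model_1337, of which Ppbp gave 1196, while Gp9 and Itga2b reached at most 0.264 and 1.35 in the Model libraries. Pf4 of the same list had medians of 6.73, 13.0 and 11.2 FPKM in Control, Model and AKK and reached 26.2 in Model, and its Model against Control change of 0.86 was not called (edgeR adjusted p 0.0843). Gp1bb of that list went the other way, with medians of 2.8, 0.16 and 1.4 FPKM. Its Model against Control change of -2.84 was not called either (edgeR adjusted p 0.0742). The sums of the 5 markers were 8.93 to 16.2 in Control and 11.5 to 16.7 in AKK, and their part in the Thbs1 values was not tested. The lowest Model and AKK libraries lay inside the Control range. Thbs1 was 2.49-fold higher in Model than in Control (log2 1.32 ± 0.31, edgeR adjusted p 0.0091), and 1.91-fold higher without Model_1337 (0.93 ± 0.23, adjusted p 0.0135). The AKK against Control change was 0.94 ± 0.30 and missed the threshold over all libraries (edgeR adjusted p 0.0697). It was called when Model_1337 was left out of the shared fit (0.94 ± 0.22, adjusted p 0.0127), and when Control_2668 was left out (1.03, adjusted p 0.0467).

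Thbs2 (ENSMUSG00000023885, chr17:14665500-14694235) encodes thrombospondin-2, an inhibitor of angiogenesis that fibroblasts make in healing tissue. It ran from 1.49 to 3.06 FPKM in Control, from 3.04 to 9.34 in Model and from 3.45 to 4.44 in AKK, with medians of 2.56, 4.07 and 4.09. All AKK libraries lay above all Control libraries, while the lowest Model library fell just under the highest Control library. The coefficient of variation was 26.2% in Control, 46.5% in Model and 8.72% in AKK. Thbs2 was 1.98-fold higher in Model than in Control (log2 0.99 ± 0.22, edgeR adjusted p 0.00746). In AKK the change against Control was 0.63 ± 0.22 (edgeR adjusted p 0.0847), and 0.63 ± 0.17 without Model_1337 (adjusted p 0.0209). Neither thrombospondin passed the test between AKK and Model, with changes of -0.38 (95% interval -1.01 to 0.26) for Thbs1 and -0.35 (-0.81 to 0.10) for Thbs2. Without Model_1337 those changes were 0.01 for Thbs1 and -0.12 for Thbs2.

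Tenascin-C, the product of Tnc (ENSMUSG00000028364, chr4:63959785-64020725), is a large glycoprotein that loosens the adhesion of cells to fibronectin and is laid down around wounds. Its level ran from 7.32 to 19.9 FPKM in Control, from 15.7 to 37.7 in Model and from 22.9 to 36.6 in AKK, with medians of 14.9, 26.7 and 29.9. All AKK libraries exceeded all Control libraries, and 2 Model libraries, Model_1338 at 15.7 and Model_1341 at 18.7, lay within the Control range. Tnc was 1.88-fold higher in Model (log2 0.91 ± 0.23, edgeR adjusted p 0.0126) and 2-fold higher in AKK (1.0 ± 0.23, adjusted p 0.02) than in Control. Between AKK and Model the change was 0.09 ± 0.23 (95% interval -0.38 to 0.57). Without Control_2288 the AKK against Control call was lost (edgeR adjusted p 0.0555), and in a fit of Model and Control alone the Model call was lost (0.0526).

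Postn (ENSMUSG00000027750, chr3:54361109-54391037) encodes periostin, which binds collagen, fibronectin and tenascin-C and aids collagen crosslinking. It had 16.2 to 33.4 FPKM in Control, 19.4 to 58.7 in Model and 34.4 to 45.9 in AKK, with medians of 24.5, 43.7 and 41.5. All AKK libraries lay above the Control libraries, by a narrow gap, and 1 Model library, Model_1341, lay inside the Control range. Postn had the smallest change of the 8 genes called in Model, 1.62-fold (log2 0.69 ± 0.18, edgeR adjusted p 0.0156), and the call was lost when Model and Control were fitted alone (0.0631). The AKK against Control change of 0.60 ± 0.18 missed the threshold (edgeR adjusted p 0.0571) although the libraries of the groups did not overlap. It was called without Model_1337 (adjusted p 0.0311), without Model_1341 (0.0204) or without Control_2668 (0.0279). Between AKK and Model the change was -0.09 ± 0.18 (95% interval -0.48 to 0.29).

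SPARC binds collagen and calcium and acts in collagen assembly, and osteopontin, the product of Spp1, is an integrin and CD44 ligand made by macrophages and in mineralised tissue. Sparc (ENSMUSG00000018593, chr11:55394500-55423183) was the most abundant of the 10 genes. Its level ran from 47.5 to 66.8 FPKM in Control, from 69.5 to 174 in Model and from 97.7 to 178 in AKK, with medians of 57.8, 125 and 159. No Model or AKK library overlapped with Control. The lowest Model library, Model_1341, was only just above the highest Control library. Sparc was 2.12-fold higher in Model (log2 1.08 ± 0.16, edgeR adjusted p 0.00103) and 2.41-fold higher in AKK (1.27 ± 0.16, adjusted p 0.00134) than in Control. AKK had the highest median of the 3 groups, but the AKK against Model change of 0.19 ± 0.16 was not called (95% interval -0.15 to 0.52, edgeR adjusted p 0.797). Of the 3 genes called in AKK against Control, Sparc was the 1 still called without the 4 libraries above 70000000 counts (1.25 ± 0.18, edgeR adjusted p 0.0094).

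Spp1 (ENSMUSG00000029304, chr5:104435118-104441050) was near the detection limit in most libraries. It ran from 0.23 to 0.937 FPKM in Control, from 0.474 to 6.48 in Model and from 0.402 to 2.11 in AKK, with medians of 0.525, 0.974 and 0.755. The groups overlapped, and the Model mean of 1.9 ± 2.31 (SD, n = 6) rested on Model_1337 at 6.48 and Model_1316 at 2.0. Spp1 did not pass the filter on low values. In a fit with no filter its Model against Control change was 1.63 (edgeR adjusted p 0.0989). With a filter on a mean of at least 1 FPKM it was 1.71 (edgeR adjusted p 0.0501). In the unfiltered fit AKK differed from Control by 0.64 (edgeR adjusted p 0.581) and from Model by -0.98 (adjusted p 0.484). The 5 macrophage markers had their highest sums with Spp1 in Model and in AKK, at 259 FPKM in Model_1337 and 150 in AKK_1306. In Control their highest sum was in Control_2286, and Spp1 was highest in Control_2668. The sum of the 3 bone markers was highest in the library with the highest Spp1 in every group. These sums were low, 3.14 in Model_1337, 2.05 in AKK_1306 and 0.75 in Control_2668. The markers did not all follow the sum. Bglap and Dmp1 reached 1.99 and 1.15 FPKM in Model, while Sp7 reached 0.0672 there and 0.158 in Control. The fibroblast and endothelial sums were also highest in Model_1337. The part of any of these cells in the Spp1 values was not tested.

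Ccn1 and Ccn2 encode secreted proteins that bind integrins and heparan sulfate, and their genes are known as rapid targets of YAP and TEAD, of SRF and, for Ccn2, of TGF-beta. In the fit over all 18 libraries they had the largest changes of the 9 tested genes in Model. That rank depended on the setting. Without Model_1316 the change was 1.72 for Fn1, 1.62 for Ccn2 and 1.44 for Ccn1, and in limma on log2(FPKM + 1) it was 1.65, 1.62 and 1.36. Ccn1 (ENSMUSG00000028195, chr3:145646976-145649981) ran from 6.79 to 14.1 FPKM in Control with a median of 9.39 and from 9.86 to 31.0 in AKK with a median of 16.2. In the Model libraries it was 80.3 in Model_1316, 61.7 in Model_1339, 39.1 in Model_1337, 15.7 in Model_1340, 13.7 in Model_1341 and 6.74 in Model_1338. The 3 highest Model libraries were well above every Control library, while 2 lay at or below the highest Control value. Ccn1 was 3.54-fold higher in Model than in Control (log2 1.82 ± 0.46, edgeR adjusted p 0.013). Its call was lost in limma on log2(FPKM + 1) (1.36, adjusted p 0.0558).

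Ccn2 (ENSMUSG00000019997, chr10:24595442-24598683) ran from 2.43 to 10.6 FPKM in Control with a median of 5.54 and from 10.3 to 17.3 in AKK with a median of 12.6. In the Model libraries it was 45.8 in Model_1316, 39.3 in Model_1340, 24.3 in Model_1337, 14.7 in Model_1339, 9.77 in Model_1341 and 7.07 in Model_1338. The same library was highest and the same library lowest for both CCN genes. Model_1339 was next highest for Ccn1 and Model_1340 for Ccn2, and both lay above all Control libraries for both genes. Ccn2 was 3.73-fold higher in Model than in Control (log2 1.90 ± 0.41, edgeR adjusted p 0.00674). The AKK against Control changes were 0.81 ± 0.45 for Ccn1 (edgeR adjusted p 0.268) and 1.04 ± 0.40 for Ccn2 (adjusted p 0.118), both short of the threshold.

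Between AKK and Model in the fit over all libraries, the log2 change was -1.01 ± 0.45 for Ccn1 (95% interval -1.96 to -0.06) and -0.86 ± 0.40 for Ccn2 (-1.70 to -0.02). The intervals of both excluded 0, with unadjusted p of 0.0383 and 0.0462, but over 14007 genes the edgeR adjusted p was 0.727 for both. With a library left out, the change ran from -1.23 to -0.63 for Ccn1 and from -1.04 to -0.58 for Ccn2. The lowest edgeR adjusted p among those fits was 0.489 for each gene. AKK libraries lay wholly within the Model range for Ccn1 and for Ccn2, with coefficients of variation of 42.3% and 24.1% against 81.9% and 68.2% in Model. For the other 7 genes the 95% interval of AKK against Model included 0. The interval reached at most 0.57 above and 1.05 below on the log2 scale among them, and Vtn had the lowest bound, -1.05. Without Model_1337 the AKK against Model change was -0.06 for Fn1, 0.01 for Thbs1, -0.12 for Thbs2 and -0.27 for Vtn. It was 0.16 for Tnc, -0.01 for Postn and 0.17 for Sparc.

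**Figure D2:**
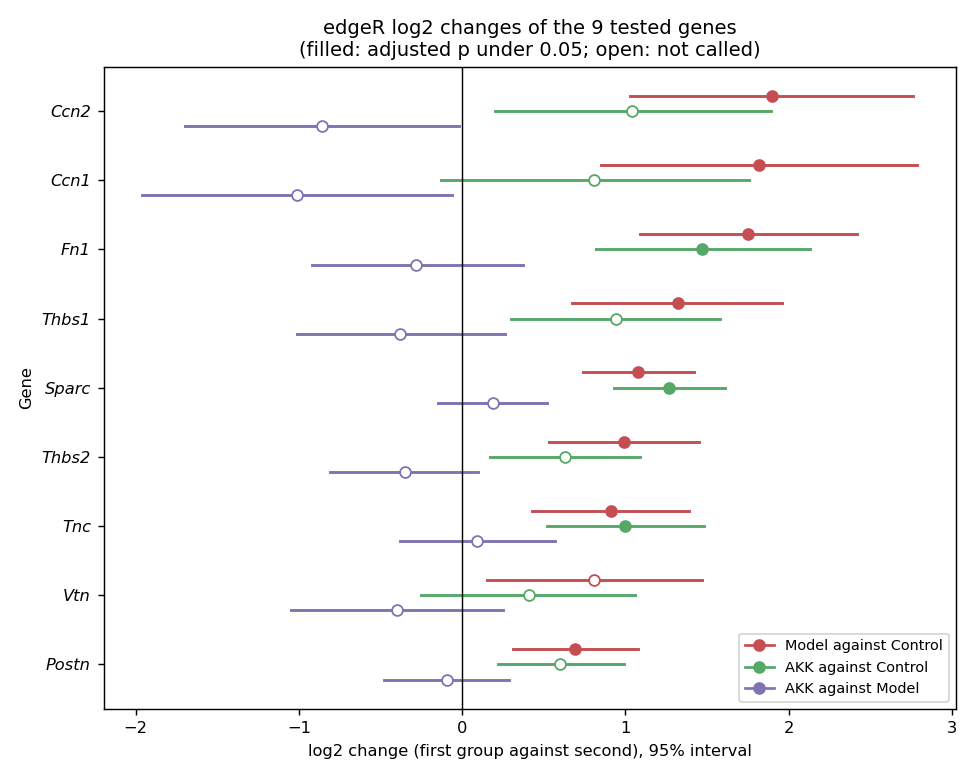
edgeR log2 change of the 9 tested genes with its 95% interval for the 3 comparisons, filled where the adjusted p was under 0.05. Points of Model against Control lie at 0.69 to 1.90 with 8 filled, those of AKK against Control at 0.41 to 1.47 with 3 filled, and those of AKK against Model at -1.01 to 0.19 with 0 filled.

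Counts of libraries that did not overlap gave another view of the same values. Model lay above Control without overlap for Fn1 and Sparc, 2 of the 9 tested genes, against 1.53% of all tested genes, and 0 lay below it, against 1.37%. AKK lay above Control without overlap for Fn1, Thbs2, Tnc, Postn and Sparc, 5 of 9, against 7.61% of all tested genes, and 0 lay below it, against 1.01%. For AKK and Model, 0 of 9 were apart in either direction, against 0.735% of tested genes with AKK higher and 0.0643% with AKK lower. More of the genes were called in Model, and more were free of overlap in AKK. Whether the Model and AKK changes against Control differ is the AKK against Model test itself, which called 0 of the 9.

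The order of the group medians was Control lowest in all 10 genes. Model had the highest median for Fn1, Vtn, Thbs1, Postn, Spp1, Ccn1 and Ccn2, and AKK for Thbs2, Tnc and Sparc. Between AKK and Model 0 of the 9 tested genes were called, and the libraries of these 2 groups overlapped in all 10, so the order of their medians is a description. The number of calls in AKK against Control depended on single libraries. It was 6 without Model_1337, where Thbs1, Thbs2 and Postn joined and 8.01% of all tested genes were called higher, 5 without Control_2668, with 5.23% of all tested genes called higher, and 2 without Control_2288, with 1.53%. It was 1 without the 4 libraries above 70000000 counts, where 0.386% of all tested genes were called higher. DESeq2 called 6, with 6.6% of all tested genes, and a fit of AKK and Control alone called 8, with 10%. Library weights in limma gave 7, with 20.6%, and leaving out Model_1337 and Model_1341 gave 6, with 9.17%. The members' counts were mostly larger where the share over all genes was larger, but not in every setting. The share was highest with library weights, at 20.6% with 7 members, and the fit of 2 groups alone gave 8 at 10%. In Model against Control the count was 8 whichever library was left out, where 1097 to 2048 of the 14007 tested genes were called higher. It was also 8 with DESeq2, which called 14.5% of all tested genes higher. It was 7, without Ccn1, against 7.91% with library weights in limma. It was 6, against 4.94% of all tested genes, when Model and Control were fitted alone, where Tnc and Postn were lost.

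Library by library, the genes did not all peak in the same place. In the Model group, Model_1337 was highest for Fn1, Vtn, Thbs1, Thbs2, Postn and Spp1, and Model_1316 for Tnc, Sparc, Ccn1 and Ccn2. Model_1341 was lowest for Thbs1, Postn, Sparc and Spp1, and Model_1338 for Tnc, Ccn1 and Ccn2. In the AKK group, AKK_1303 was lowest for 9 of the 10 genes and Postn was the exception. Without Model_1337 the changes of the 8 called genes in Model against Control were 0.61 to 1.90 and all 8 were called, against 9.02% of all tested genes.

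**Figure D3:**
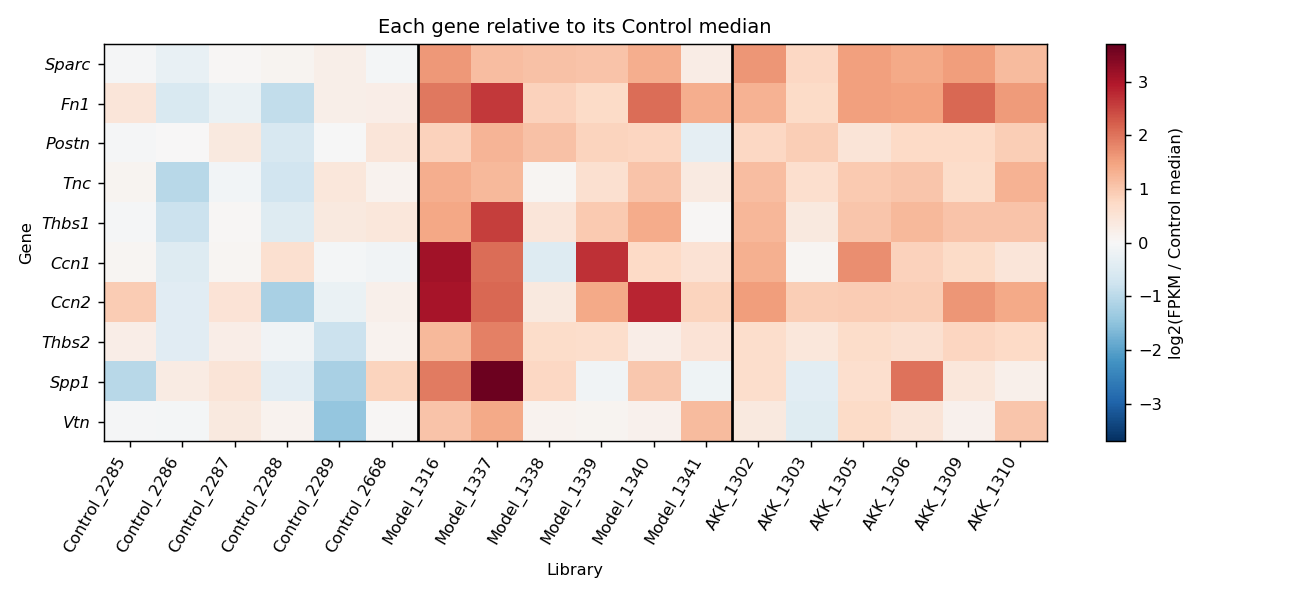
log2 of FPKM over the gene's Control median, for 10 genes (rows) in 18 libraries (columns, black lines between groups). Model_1316 and Model_1337 are high in nearly all rows, Model_1338 and Model_1341 are near the Control level in several, and AKK_1303 is the palest AKK column.

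Profiles over the 18 libraries were compared by the root-mean-square (RMS) difference of standardised log2(FPKM + 1) values, where 0 is an identical shape. It is a description, since libraries of a group share their treatment. Among the 9 tested genes the closest pair was Thbs1 and Tnc at 0.48, followed by Fn1 and Thbs1 at 0.49. Ccn1 and Ccn2 were 0.83 apart, and Vtn and Postn were farthest apart at 1.2. Among all other tested genes, Sparc was closest to Col3a1 (0.2), Col4a1 (0.21) and Bgn (0.21), which encode fibrillar collagen III, basement membrane collagen IV and biglycan. Col3a1 had group medians of 48.5, 132 and 173 FPKM in Control, Model and AKK, in the same order as Sparc. Tnc was closest to Fbln1 (0.29), Enpp1 (0.32) and Col12a1 (0.33), and Thbs1 to Kirrel (0.23), Sh3pxd2a (0.24) and Pcbp4 (0.26).

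Fn1 was closest to Itm2a (0.3), Ighg2b (0.3), an immunoglobulin heavy chain gene, and C1qtnf7 (0.32). The plasma cell markers, which include the J chain gene, summed to 259 to 360 FPKM in Control, 252 to 2319 in Model and 698 to 1375 in AKK, and their part in the Fn1 values was not tested. Thbs2 was closest to Tspan9 (0.39), Pdgfd (0.42) and Sgce (0.42), and Postn to Man1a (0.34), Calcrl (0.34) and Plpp3 (0.36). Vtn had no close neighbour, with Cytl1 nearest at 0.62, then Wasf3 and Kdm1b at 0.68. Ccn2 was closest to Zfp608 (0.42), S100pbp (0.44) and Filip1l (0.46). Ccn1 was closest to Nr4a1 (0.5), Nr4a2 (0.57) and Dusp1 (0.59), which are known as immediate-early genes, induced within minutes of a stimulus. Nr4a1 ran from 3.34 to 10.7 FPKM in Control, from 3.56 to 33.0 in Model and from 7.99 to 20.1 in AKK. Its 3 highest Model libraries, Model_1339, Model_1337 and Model_1316, were the 3 highest for Ccn1, and Model_1338 was the lowest for both.

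**Figure D4:**
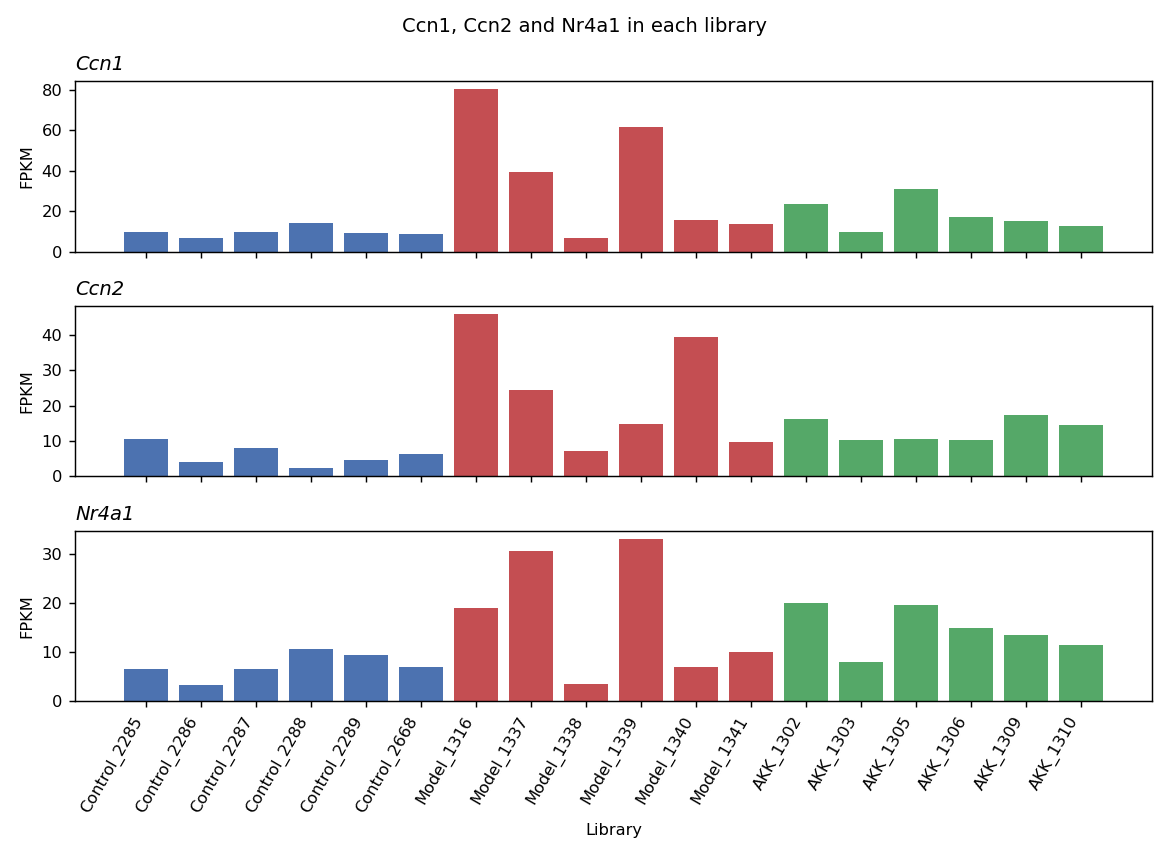
FPKM of Ccn1, Ccn2 and Nr4a1 in each of the 18 libraries (bars from 0). Ccn1 and Nr4a1 share their 3 highest Model libraries, and Ccn2 is high in Model_1340, where Ccn1 has 15.7 and Nr4a1 has 6.9.

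The genes around these members in matrix biology were taken from lists of family relatives, receptors, upstream regulators and other targets, chosen with earlier results of these data known. In Model against Control, 9 of 17 tested family relatives were higher and 0 lower, with a median change of 0.78, where 12.4% of all tested genes were higher and 7.67% lower. The smallest adjusted p-values were those of Fbln5, which encodes the elastic-fibre protein fibulin-5 (log2 1.30, edgeR adjusted p 0.000531), and Fstl1, which encodes a secreted SPARC relative (1.23, adjusted p 0.00161). Of 17 tested receptors, 9 were higher and 0 lower, with a median of 0.58. Itgb5, the integrin beta 5 chain of a vitronectin receptor, rose by 0.57 (edgeR adjusted p 0.00296), and Itga8, whose integrin binds fibronectin, tenascin-C and osteopontin, rose by 1.09 (adjusted p 0.00636).

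Of 18 regulators of the TGF-beta, YAP/TEAD and SRF pathways, 6 were higher in Model and 0 lower, with a median of 0.33. They included the ligand Tgfb3 (log2 0.87, edgeR adjusted p 0.00297) and Wwtr1, which encodes TAZ (1.17, adjusted p 0.0038). Of 9 tested genes known as other targets of those pathways, 5 were higher and 0 lower, with a median of 0.83. Lox, the collagen crosslinking enzyme lysyl oxidase, rose by 2.17 (edgeR adjusted p 0.00227) and Tagln, a smooth muscle actin-binding protein, by 1.20 (adjusted p 0.00872). Axl (0.79) and Tgfbi (0.83) were also called higher, and Tgfbi also stands among the family relatives. Over all 60 tested genes of these lists 28 were higher, and 14 were when Model and Control were fitted alone, where the share over all tested genes was 4.94%.

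In AKK against Control, where 3.72% of all tested genes were higher, higher were 8 of 17 family relatives, 1 of 17 receptors, 2 of 18 regulators and 1 of 9 other targets, and 0 were lower. Fbln5 rose by 1.44 (edgeR adjusted p 0.000596) and Ccn4, a further CCN gene, by 1.35 (adjusted p 0.00365). The receptor was Itgb5 (0.40, edgeR adjusted p 0.0312), the regulators were Tgfb3 (0.88, adjusted p 0.00587) and Tgfbr2 (0.71, adjusted p 0.0162), and the other target was Lox (2.35, adjusted p 0.00278). The 1 receptor of 17 is near the share over all tested genes. The total of 12 was 24 without Model_1337, where that share was 8.01%. Between AKK and Model, edgeR called 0 of the 60 genes, and 6 had an unadjusted p under 0.05, 1 of them higher. The smallest p-values in the lists belonged to Spock2 (-0.77), Itga5 (-0.50), Srf (-0.29) and Acta2 (-0.54), with adjusted p of 0.727 to 0.741.

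Markers of stromal, endothelial and blood-borne cells were counted in the same fit. Over all tested genes that fit called 12.4% higher and 7.67% lower in Model, and 3.72% and 2.48% in AKK, each against Control. The 7 fibroblast markers, all of them detected, summed to 156 to 211 FPKM in Control, 172 to 730 in Model and 339 to 437 in AKK. Of the 7, 5 were higher in Model than in Control (Col6a1, Dcn, Dpt, Lum and Pdgfrb), and 5 of 7 were higher in AKK (Col6a1, Col6a2, Dpt, Lum and Pdgfrb). The lowest Model sum, 172, was that of Model_1341, and the highest, 730, that of Model_1337. The 5 endothelial markers summed to 13.6 to 23.5, 18.4 to 63.9 and 23.9 to 37.2 FPKM in the 3 groups, with 5 of 5 higher in Model and 3 of 5 in AKK. The 5 macrophage markers summed to 37.6 to 96.5, 29.4 to 259 and 108 to 150, with 3 of 5 and 0 of 5 higher. The 5 smooth muscle markers summed to 332 to 1562, 734 to 2463 and 804 to 1277, with 2 of 5 and 0 of 5 higher. The 6 colon epithelium markers were detected in all groups, with sums of 2467 to 10573, 368 to 9363 and 1646 to 6910, and had 0 edgeR calls in either comparison with Control. At an unadjusted p under 0.05 were 2 of them, both lower, in Model and 1, also lower, in AKK. The part of these cells in the results was not tested. Values set against the fibroblast markers follow, but Dcn, Lum, Dpt, Col6a1 and Col6a2 among those markers are themselves matrix genes. Such values therefore cannot separate the number of fibroblasts from the matrix RNA made per cell.

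Levels were also set against the summed fibroblast markers of the same library. On that scale the Model and the AKK ranges overlapped the Control range in all 10 genes, Fn1 and Sparc included, which had been free of overlap in FPKM. Fn1 ran from 5.39% to 12.9% of the sum in Control, from 6.99% to 23.1% in Model and from 7.48% to 20.5% in AKK. Sparc ran from 27.2% to 40.2% in Control, from 17.6% to 43.1% in Model, with Model_1337 the lowest, and from 28.5% to 49.9% in AKK. Thbs1 had medians of 6.7%, 7.34% and 7.12% of that sum in Control, Model and AKK, and Tnc had 7.35%, 7.05% and 7.74%. Postn had 14.4%, 11.5% and 10.4%, with Control the highest. Control was also the highest for Thbs2 (1.41%, 1.2% and 0.992%), Vtn (0.423%, 0.255% and 0.251%) and Spp1 (0.301%, 0.291% and 0.202%). Ccn1 had 4.74%, 6.66% and 4.38%. The medians of Fn1 were 7.8%, 13.0% and 10.9% and those of Sparc 30.8%, 35.5% and 40.2%, with Control the lowest in both. Ccn2 had 2.85%, 4.85% and 3.2%, and its Model range of 1.98% to 11.4% spanned the Control range of 1.56% to 6.33% in large part.

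With the mean log2 level of the fibroblast markers added to the edgeR fit as a covariate, 0 of the 9 genes were called in Model against Control or in AKK against Control. At an unadjusted p under 0.05 were Fn1 and Sparc in each. In Model against Control the change was 1.32 ± 0.42 for Fn1 (edgeR adjusted p 0.154), 0.64 ± 0.22 for Sparc (adjusted p 0.183), 0.07 ± 0.30 for Thbs1 (adjusted p 0.941) and -0.04 ± 0.21 for Postn (adjusted p 0.957). Over all tested genes that fit called 0.278% higher and 0.193% lower in Model against Control, and 0% in either direction in AKK against Control. The covariate itself differed by group, at 6.58 to 6.94 in Control, 6.68 to 8.21 in Model and 7.49 to 7.82 in AKK, so group and fibroblast level can hardly be told apart in these libraries, and in AKK against Control they did not overlap.

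Genes that overlap the members on the genome were low. On the opposite strand lie Apol7d at Fn1, Gm29233 at Thbs1, 8030451A03Rik at Tnc and Gm15270 at Ccn2, and Gm42793 lies on the same strand as Spp1. The highest level of any of them in any library was 0.506 FPKM. Which strand setting was used for counting was not given in the sources used here, and reads of opposite-strand partners cannot be assigned with certainty.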

How the data were processed

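Per the labels' protocols, colon RNA was selected for polyA tails, and paired-end reads were taken from dUTP libraries, which keep the strand. The tools named in the submitters' processing notes are cutadapt 1.9, HISAT2 2.2.1, StringTie 2.1.6, and DESeq2 and edgeR without a version, with the build mm10. The annotation release was not given in the sources used here. Per the file headers, the authors deposited FPKM and an estimated count for each gene and library. The deposited counts were whole numbers. A count of 4 was 2.36 times, a count of 8 was 1.75 times and a count of 12 was 1.36 times as frequent as the counts next to it, so a fragment appears to give about 4 counts, and division by 4 was an alternative. No 2 libraries held identical values.

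Counts were scaled by TMM and fitted in edgeR 4.0.16 (R 4.3.3) with a term per group over all 18 libraries. The SE is the log2 change divided by the square root of the quasi-likelihood F. Spread is given as SD of FPKM. The precision of low genes is limited by their counts, which were 35 to 121 for Vtn and 24 to 94 for Spp1 in Control. If a fragment gives about 4 counts, the fragments behind these values are fewer and the precision is lower. Alternatives were DESeq2 1.42.0, limma 3.58.1 on log2(FPKM + 1) or log2(FPKM + 0.1), other scalings and filters, a fit of 2 groups alone, library weights, a fibroblast covariate and leaving out each library. Leaving out Model_1337 with Model_1341, or the libraries above 70000000 counts, was added after seeing the data. The fit was also run on simulated counts with changes set in Model alone, and its outcome is not given here. The simulation held no library that stands apart as Model_1337 does and no steps of 4 counts. The members and lists were chosen with earlier results of these data known. All 10 members are named. From each related list the 2 called genes with the smallest adjusted p per comparison are named, or, where none was called, the 1 gene with the smallest p, and for likeness the 3 nearest genes. Axl and Tgfbi were named after their values were seen, and 1 further called gene of that list is not reported here. Promoter windows are RefSeq's for GRCm38.p6. Tables and figures were made with Python 3.11.15, pandas 2.3.3, numpy 2.4.6, scipy 1.17.1 and matplotlib 3.10.9.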

Additional observations from a re-analysis of the deposited data

Results flagged for a closer look

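In 5 of 30 sets of 6 libraries (10 genes in 3 groups), the highest or lowest library stood apart from the rest by Dixon's criterion at 95%, which chance alone meets in about 1 in 20 sets. The level of Thbs1 in Model_1337 was 73.5 FPKM, and the other Model libraries had 13.1 to 33.6. The level of Spp1 in Model_1337 was 6.48 FPKM, and the others had 0.474 to 2.0. That library also held the squamous epithelium transcripts and the Ppbp transcripts given above. Among the AKK libraries, Thbs1 was 16.1 FPKM in AKK_1303 with the others at 25.7 to 29.5, and Spp1 was 2.11 FPKM in AKK_1306 with the others at 0.402 to 0.83. In Control_2289, Vtn was 0.277 FPKM, and the other Control libraries had 0.71 to 0.944.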

How the results depend on the processing

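In Model against Control, 8 members were higher with any library left out (8 to 8), where 1097 to 2048 of all 14007 tested genes were higher. With the fibroblast covariate 0 members were higher, against 0.278% of all tested genes. The related genes called higher there, 28 in all, were 21 to 34 with a library left out, 14 with the 2 groups alone (4.94% of all tested genes), 18 with library weights (7.91%) and 0 with the covariate. In AKK against Control, the 3 members called higher (3.72% of all tested genes) became 6 with DESeq2 (6.6%), 8 with the 2 groups alone (10%), 7 with library weights (20.6%), 6 without Model_1337 and Model_1341 (9.17%), 1 without the 4 libraries above 70000000 counts (0.386%), 0 with the covariate (0%) and 2 to 6 with a library left out. The 12 related genes became 25 with the 2 groups alone, 37 with weights, 24 without Model_1337 and Model_1341, 2 without the 4 libraries, 0 with the covariate and 8 to 24 with a library left out. In the fits with a library left out, 201 to 1122 of all tested genes were called higher in AKK against Control. AKK against Model gave 0 members and 0 related genes in every alternative run. Signs turned, with no call on either side, in AKK against Model for Fn1 (0.32), Vtn (0.07) and Thbs1 (0.11) with weights, Vtn (0.01) without Model_1337 and Model_1341, and Postn (0.01) in limma with either pseudocount. With a library left out, Thbs1 ran from -0.53 to 0.01 and Tnc from -0.02 to 0.2. With the covariate, the change of Postn in Model against Control became -0.04, and in AKK against Control the changes of Thbs1 (-0.26), Postn (-0.13) and Ccn1 (-0.22) turned. The cause was not tested. Ccn1 in Model against Control also missed the threshold with quantile scaling (0.0503) and weights (0.0841). No paired analysis was possible because the groups share no library numbers. Limits are 6 libraries per group, no stated DSS status or age for AKK, and low counts for Vtn and Spp1.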
